A study of Homo sapiens with 4 samples.

Results

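The genes described here are the E2F transcription factors and the pocket proteins that hold them in check. The members were taken by gene symbol, E2F1 to E2F8 with RB1 and RBL1, which gave 10 genes of the 18398 rows measured in each library. Huh1 and Huh7, both hepatocellular carcinoma lines, were transfected with 15 nM of a negative control siRNA that targets no endogenous transcript (NCsiRNA) or of a siRNA against CDCA8 (CDCA8siRNA), and RNA sequencing was compared after 48 h, with 1 library for each of the 4 combinations. CDCA8 encodes borealin, a subunit of the chromosomal passenger complex that guides chromosomes through mitosis, and the comparison asks which transcripts differ once it is depleted. The study bought several CDCA8 siRNAs and names CDCA8-1siRNA for the RNA sequencing, so the knockdown here rests on a single sequence. The NCsiRNA transfection is shared by every gene compared within a line.

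E2F factors bind DNA, most of them as dimers with a DP protein, and control the genes that cells need to enter S phase and copy their DNA. E2F1, E2F2 and E2F3 are the activators, E2F4 and E2F5 act mainly as repressors together with pocket proteins, E2F6 represses through polycomb partners, and E2F7 and E2F8 are atypical repressors that bind without a DP protein. The pocket proteins RB1 and RBL1 (p107) bind E2F factors until cyclin-dependent kinases phosphorylate them. Several of these genes are themselves E2F targets, so the circuit feeds back on its own transcription, and loss of RB1 control is a common step in liver cancer.

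Of the 10 members, 8 had an entry in the RefSeq promoter table (GRCh38.p14, 300 bases running from 250 before to 50 after a start site), and the entries of 7 lay within 1000 bases of the start of the measured transcript. These promoters were searched on both strands for 4 forms of the E2F core motif, the first TTTCGCG, another TTTGGCG, a further form TTTCCCG, and last TTTGCCG, because E2F genes are textbook E2F targets. At least 1 core was present in 5 of the 7 (E2F1, E2F2, E2F3, E2F6 and RBL1) and none of these letters in the windows of E2F4 and E2F7. Among all 35116 promoters in the table, 8.67% held at least 1 core and 0.681% held 2 or more matches. The stretches below, read 5′ to 3′ on the strand of the gene, are the parts of the promoters in which the cores lie close together, with the cores in capitals. In E2F1 the first run of capitals is a TTTCGCG and a TTTGCCG on the other strand that overlap.
E2F1 (chr20:33686389-33686432, minus strand): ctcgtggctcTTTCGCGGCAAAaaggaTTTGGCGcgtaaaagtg
E2F2 (chr1:23531259-23531300, minus strand): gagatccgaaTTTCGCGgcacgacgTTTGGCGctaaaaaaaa
E2F3 (chr6:20401817-20401856, plus strand): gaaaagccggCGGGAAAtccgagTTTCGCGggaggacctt
RBL1 (chr20:37095997-37096033, minus strand): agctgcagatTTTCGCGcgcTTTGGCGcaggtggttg
E2F1, E2F2 and RBL1 share the pair TTTCGCG and TTTGGCG in the same order and orientation, and in E2F3 TTTCGCG is preceded by TTTCCCG on the other strand. A match is a description of the letters and no evidence that a factor was bound there in these cells.

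The libraries had similar depth, between about 12200000 and 13400000 reads in the scaling as read back from the values, and 2568 to 3169 rows at 0. The targeted gene CDCA8 was at 24.1 RPKM (reads scaled to transcript length and library depth) with NCsiRNA and 5.86 RPKM with CDCA8siRNA in Huh1, and at 51.5 and 7.36 RPKM in Huh7. All 15 hepatocyte and liver cancer markers were at 1 RPKM or more in every library. Of 15 markers of other cell types, 14 had a row; their summed level was 1.52 and 3.02 RPKM in Huh1 and 151 and 208 RPKM in Huh7 (NCsiRNA first), where the collagen genes COL1A1 and COL1A2 made up most of it, while the endothelial marker CDH5 was at 0 in every library. Only 1 marker of other cell types, LYZ for lysozyme, was tested for a change with CDCA8siRNA, and it was called higher (adjusted p = 0.0129 by limma), in the opposite direction to E2F8, and its part in the results was not tested.

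With NCsiRNA, E2F4 had the highest level of the 10 genes in both lines and E2F1 was among the next, while the bottom of the order differed between the lines. In Huh1 the order was E2F4, E2F1, E2F3, E2F6, RB1, E2F8, RBL1, E2F7, E2F2 and E2F5, from 34.8 down to 2.11 RPKM. Within that order the 95% Poisson intervals overlapped only for the neighbours E2F3 and E2F6 and the neighbours E2F8 and RBL1. In Huh7 the order was E2F4, RB1, E2F1, E2F5, E2F8, E2F6, E2F7, E2F3, RBL1 and E2F2, from 27.5 down to 5.74 RPKM. There the intervals of each neighbour overlapped along the run from RB1 to E2F5 and along the run from E2F8 to E2F3. The intervals cover counting error only.

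**Figure D1:**
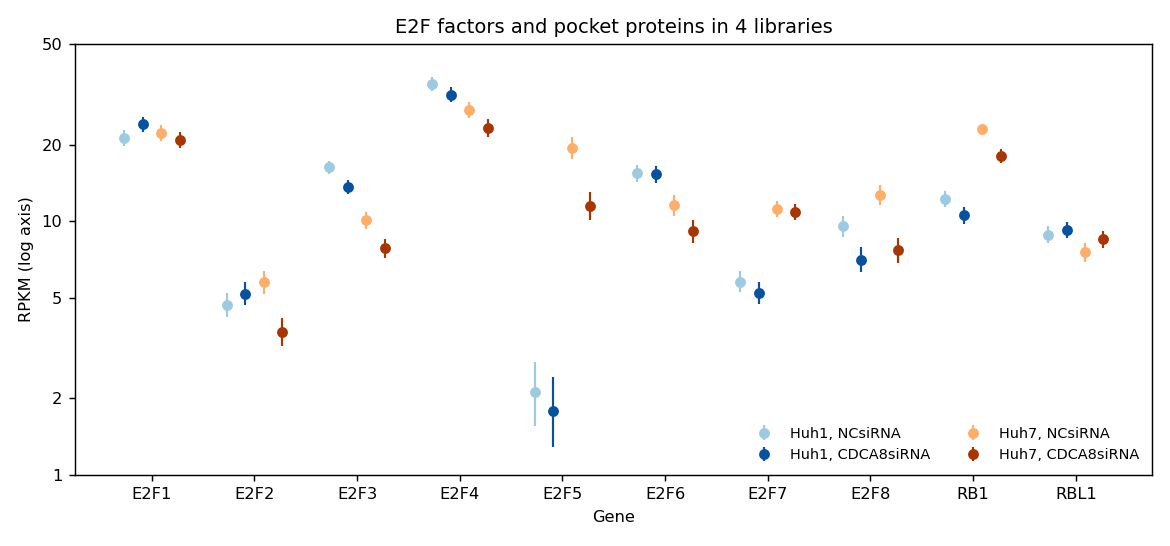
RPKM on a log axis for each of the 10 genes in the 4 libraries, with points for the values and vertical bars for 95% Poisson intervals of the reads behind them (counting error only). E2F5 sits at 2.11 and 1.79 RPKM in Huh1 and at 19.5 and 11.5 RPKM in Huh7, and E2F4 is the highest point in every library.

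With CDCA8siRNA, E2F8 was the only one of the 10 genes called by the test over both lines, and it fell. No member reached a 2-fold difference in either line: 0 of 10 in Huh1, where 0.494% of the 10940 genes tested did, and 0 of 10 in Huh7, where 1.57% of 11565 did. At 1.5-fold, a threshold added after the values were seen, the members past it were 0 in Huh1 (3.75% of all genes) and 2 in Huh7, E2F5 and E2F8 (8.72% of all genes). In RPKM, E2F2 in Huh7 was 1.57 times as high with NCsiRNA, which stays under 1.5-fold once 1 RPKM is added to both values. Changes are differences of log2(RPKM + 1), CDCA8siRNA minus NCsiRNA, which understate the change of genes with few RPKM, and the SD given with each covers counting error only because there is 1 library per condition. The test across the lines was limma on all 4 libraries with cell line as a covariate, with Benjamini-Hochberg adjustment over 10357 genes. It has 1 residual degree of freedom beside 8.29 prior degrees of freedom, so its standard errors rest mostly on variance shared over genes. How alike the lines moved in a given gene has less weight, and the spread between transfections was not measured. Limma called 1 member lower (4.21% of all genes were called lower) and 0 higher (6.03% of all genes), where 10.2% of all genes were called in either direction. At an unadjusted p under 0.05 limma had 4 members, all lower, and 26.0% of all genes.

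The direction of the members was more often down than that of the genes as a whole. In Huh1, 7 members were lower and 3 higher, with a median log2 change of -0.13, beside a median of 0.023 over all genes, of which 44.9% were lower. In Huh7, 9 were lower and 1 higher, with a median of -0.32, beside 0.033 and 45.5%. E2F3, E2F4, E2F5, E2F6, E2F7, E2F8 and RB1, 7 of the 10, were lower in both lines, where 30.5% of all genes were, and RBL1 was the 1 member higher in both. Some of these changes were small beside counting error: 0.78 counting SDs for E2F5 and 0.18 for E2F6, both in Huh1. E2F7 was at 1.52 in Huh1 and 0.52 in Huh7, and RBL1 at 0.75 and 1.90. The counts go by sign alone, for the members as for all genes. These counts describe a short list chosen by name, and the members are not independent of each other.

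**Figure D2:**
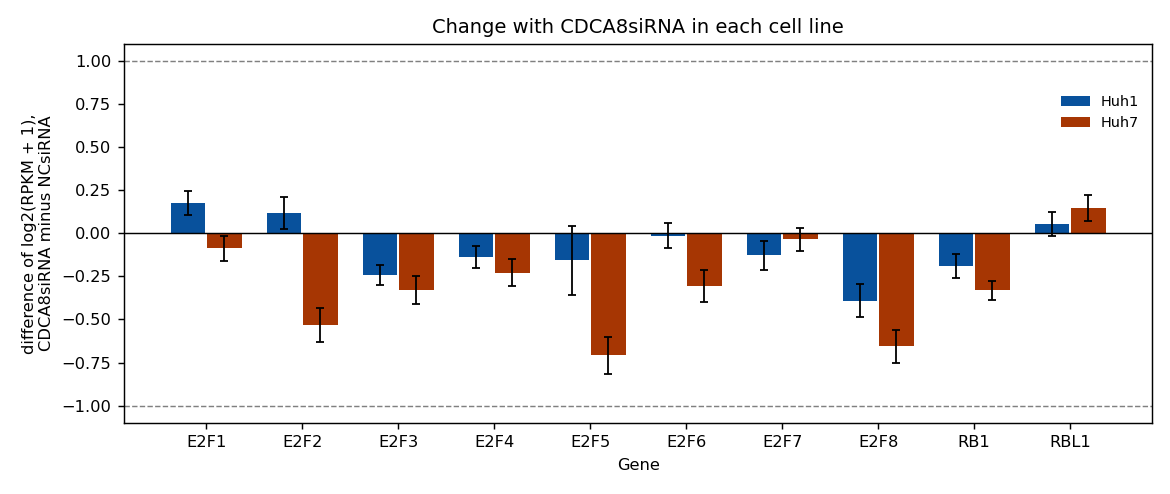
Difference of log2(RPKM + 1), CDCA8siRNA minus NCsiRNA, for each gene in Huh1 and Huh7, with bars from 0, error bars of 1 SD from counting alone and dashed lines at 2-fold. No bar reaches a dashed line, and the longest are E2F5 in Huh7 at -0.71 and E2F8 in Huh7 at -0.66.

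Among the activators, E2F3 was lower with CDCA8siRNA in both lines without passing the test, whereas E2F1 and E2F2 were higher in Huh1 and lower in Huh7. E2F1, the activator most closely tied to S phase entry and also able to drive apoptosis genes, lies on chromosome 20 of GRCh38 from 33675683 to 33686404 on the minus strand, in 7 exons. Its levels in Huh1 were 21.3 RPKM with NCsiRNA and 24.2 with CDCA8siRNA, from 769 and 861 reads. In Huh7 they were 22.3 and 21.0 RPKM, from 735 and 694 reads. The log2 changes were 0.18 (counting SD 0.0685) in Huh1 and -0.087 (0.0730) in Huh7, and limma gave 0.045 with a standard error of 0.106 and an adjusted p of 0.834. The 4 values of E2F1 therefore lay between 21.0 and 24.2 RPKM, the narrowest relative range of the activators.

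E2F2, an activator with a more restricted expression than E2F1, lies on chromosome 1 from 23506430 to 23531220 on the minus strand. It was at 4.69 and 5.18 RPKM in Huh1 (NCsiRNA first) and at 5.74 and 3.66 RPKM in Huh7. The Huh7 library with CDCA8siRNA was the lowest of the 4, below both Huh1 libraries. The log2 change was 0.12 (counting SD 0.0920) in Huh1 and -0.53 (0.0983) in Huh7, so the response in Huh7 was lower than that in Huh1 by a log2 difference of -0.65 (0.135), or 4.83 counting SDs. This was the widest gap between the lines' responses among the 10 genes. Limma, which averages the lines, gave -0.21 with a standard error of 0.161 and an adjusted p of 0.466.

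E2F3, the activator gene from which different start sites give E2F3a and E2F3b, lies on chromosome 6 from 20402167 to 20493715 on the plus strand. The rows hold 1 value per gene and do not separate the isoforms. It was at 16.3 and 13.6 RPKM in Huh1, from 1093 and 901 reads, and at 10.1 and 7.81 RPKM in Huh7, from 615 and 480 reads. Both CDCA8siRNA libraries were lower than their own control, and both Huh7 libraries were lower than both Huh1 libraries. The log2 changes were -0.24 (counting SD 0.0608) and -0.33 (0.0788), and limma gave -0.29 with a standard error of 0.105 and an adjusted p of 0.123.

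Among the repressors, E2F4 was the most abundant and E2F5 the most variable. E2F4, the main E2F partner of the pocket proteins in resting cells, lies on chromosome 16 from 67192169 to 67198918 on the plus strand, in 10 exons. It was at 34.8 and 31.5 RPKM in Huh1 and at 27.5 and 23.3 RPKM in Huh7. Its log2 changes of -0.14 (counting SD 0.0652) and -0.23 (0.0770) pointed the same way, with a limma adjusted p of 0.263. E2F6, the repressor that works without pocket proteins, lies on chromosome 2 from 11444375 to 11466149 on the minus strand. It was at 15.5 and 15.3 RPKM in Huh1, which is within counting error, and at 11.6 and 9.16 RPKM in Huh7. The log2 changes of E2F6 were -0.013 (0.0744) and -0.31 (0.0922), and limma gave an adjusted p of 0.420.

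E2F5, a repressor that pairs mainly with RBL2 (p130), was the member that separated the lines. It lies on chromosome 8 from 85177387 to 85214515 on the plus strand. In Huh1 it was at 2.11 RPKM with NCsiRNA and 1.79 RPKM with CDCA8siRNA, from 49 and 41 reads. In Huh7 it was at 19.5 and 11.5 RPKM, from 412 and 245 reads. The log2 change with CDCA8siRNA was -0.16 (counting SD 0.201) in Huh1, less than its counting SD, and -0.71 (0.108) in Huh7. Limma gave -0.43 with a standard error of 0.147 and an adjusted p of 0.0985, which misses 0.05, and E2F5 passed only after quantile normalization or upper quartile scaling of the libraries, with adjusted p values of 0.0200 and 0.0478. Over all alternatives that kept the gene its adjusted p ran from 0.0200 to 1.00. Exons of E2F5, E2F8 and RBL1 overlap genes on the opposite strand in GENCODE v29, and the strand setting of the counting was not given in the sources used here, so reads of such partners cannot be told apart. The overlapping gene with a row of its own, C8orf59 beside E2F5, was at 35.4 and 34.4 RPKM in Huh1 and at 49.9 and 40.0 RPKM in Huh7.

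E2F7 and E2F8, the atypical repressors that are E2F1 targets and damp E2F1 activity in S phase, behaved unlike each other. E2F7 lies on chromosome 12 from 77021247 to 77065580 on the minus strand, and was at 5.78 and 5.20 RPKM in Huh1 and at 11.2 and 10.9 RPKM in Huh7. The log2 changes of E2F7 were -0.13 (counting SD 0.0844) and -0.035 (0.0672), and its limma adjusted p was 0.694. E2F8 lies on chromosome 11 from 19224535 to 19240951 on the minus strand, in 13 exons. E2F8 was at 9.56 and 7.06 RPKM in Huh1 and at 12.7 and 7.69 RPKM in Huh7. Both CDCA8siRNA libraries were below both NCsiRNA libraries, keeping 73.8% of the control level in Huh1 and 60.6% in Huh7.

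The fall of E2F8 on the log2 scale was -0.39 (counting SD 0.0970) in Huh1 and -0.66 (0.0943) in Huh7. Limma gave -0.52 with a standard error of 0.116 and an adjusted p of 0.0243. Across the alternatives its log2 change stayed between -0.57 and -0.52, but only the pseudocount and the scalings of the libraries could move it. The adjusted p ran from 0.00221 to 1.00, and the call was lost without a filter on low values (0.281) and without the cell line covariate (1.00). The ratio of E2F8 to E2F7 in RPKM was 1.65 and 1.36 in Huh1 and 1.14 and 0.706 in Huh7, so E2F8 was the more abundant of the pair in every library but that of Huh7 with CDCA8siRNA. Most hepatocyte and liver cancer markers moved in the same direction as E2F8: 10 of 15 were called lower (4.21% of all genes) and 0 higher (6.03%). By sign alone 13 of the 15 were lower in Huh1 and 13 in Huh7, and the rest were higher. Of these markers, 6 were called without the mean-variance trend in limma, where 710 of all 10357 genes were. Their median log2 changes were -0.36 in Huh1 and -0.45 in Huh7, beside 0.023 and 0.033 over all genes, and ALB, for albumin, was at 3447 and 2684 RPKM in Huh1 and at 1166 and 721 RPKM in Huh7. Their part in the result was not tested.

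The genes closest to E2F8 by the distance between centred log2(RPKM + 1) values over the 4 libraries, among 10356 others, included SIKE1 at a distance of 0.0529, CDC25A at 0.0690, TMPO at 0.0825 and PIGH at 0.0930. CDC25A, the phosphatase that activates CDK2 and a known E2F target, was at 20.3 and 14.2 RPKM in Huh1 and at 25.7 and 16.0 RPKM in Huh7. SIKE1 was at 11.9, 8.53, 15.9 and 9.33 RPKM in the same order of libraries. Likeness over 4 libraries is a description of these values alone.

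Of the pocket proteins, RB1 was lower and RBL1 higher with CDCA8siRNA in both lines, but neither was called and their difference was not tested. RB1, the retinoblastoma protein that restrains the activators, lies on chromosome 13 from 48303726 to 48481890 on the plus strand, in 27 exons. It was at 12.2 and 10.6 RPKM in Huh1, from 780 and 666 reads, and at 23.0 and 18.1 RPKM in Huh7, from 1339 and 1059 reads. RB1 was thus lower with CDCA8siRNA in both lines, with log2 changes of -0.19 (counting SD 0.0699) and -0.33 (0.0565), but limma gave -0.26 with a standard error of 0.103 and an adjusted p of 0.147. RBL1, whose product binds E2F4 and is itself E2F-driven, lies on chromosome 20 from 36996349 to 37095995 on the minus strand. It was at 8.86 and 9.23 RPKM in Huh1 and at 7.57 and 8.48 RPKM in Huh7, the least variable of the 10 genes between lines and siRNAs apart from E2F1. Its log2 changes were 0.053 (0.0703) and 0.15 (0.0769), with an adjusted p of 0.616. RBL2, the third pocket protein, which was measured as part of the MuvB list, had a log2 change of 0.035 in Huh1, where it reached 15.3 RPKM with CDCA8siRNA, and of -0.012 in Huh7, where it was at 11.9 and 11.7 RPKM, with an adjusted p of 0.956.

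Summed over the family, the E2F genes held 110.0 RPKM with NCsiRNA and 103.9 RPKM with CDCA8siRNA in Huh1, and 120.5 and 95.0 RPKM in Huh7. The activators made up 38.4% and 41.4% of that sum in Huh1 and 31.6% and 34.1% in Huh7. The atypical pair made up 13.9% and 11.8% in Huh1 and 19.8% and 19.6% in Huh7. The share of E2F7 and E2F8 was therefore higher in Huh7 with either siRNA. The ratio of RB1 to RBL1 was 1.38 and 1.15 in Huh1 and 3.04 and 2.13 in Huh7, which was lower with CDCA8siRNA in both lines.

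For 4 of the 10 genes the lines stood at least 1.5-fold apart before any knockdown, E2F5 by far the most. Between Huh7 and Huh1 with NCsiRNA, 1 member, E2F5, passed 2-fold, where 27.2% of 11896 genes did, and 4 passed 1.5-fold (E2F3, E2F5, E2F7 and RB1), where 47.7% did. With CDCA8siRNA again 1 member, E2F5, passed 2-fold, where 27.5% of 12005 genes did, and 5 passed 1.5-fold, E2F6 being added, where 47.8% did. The members' share was thus below that of all genes at 2-fold and near it at 1.5-fold. E2F5 was 9.23 times as high in Huh7 as in Huh1 with NCsiRNA and 6.44 times as high with CDCA8siRNA, log2 differences of 2.72 (counting SD 0.155) and 2.17 (0.168).

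E2F7 was 1.94 and 2.09 times as high in Huh7 as in Huh1 in RPKM (NCsiRNA first), the second of which stays under 2-fold once 1 RPKM is added to both values, and RB1 was 1.88 and 1.71 times as high. E2F3 was lower in Huh7 by log2 differences of -0.64 and -0.73, and E2F4 by -0.33 and -0.42. Over all genes the median log2 difference between the lines with NCsiRNA was 0.14, and quantile normalization moved it to 0.016, so differences of that size depend on the scaling. E2F1 changed the sign of its small difference between the lines with NCsiRNA under that normalization, from 0.066 to -0.026, and also under upper quartile scaling, and E2F8 did so with CDCA8siRNA under quantile normalization, from 0.11 to -0.053. The ratio of E2F5 to E2F4 was 0.0607 and 0.0568 in Huh1 and 0.709 and 0.494 in Huh7. The differences between the lines were not tested.

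**Figure D3:**
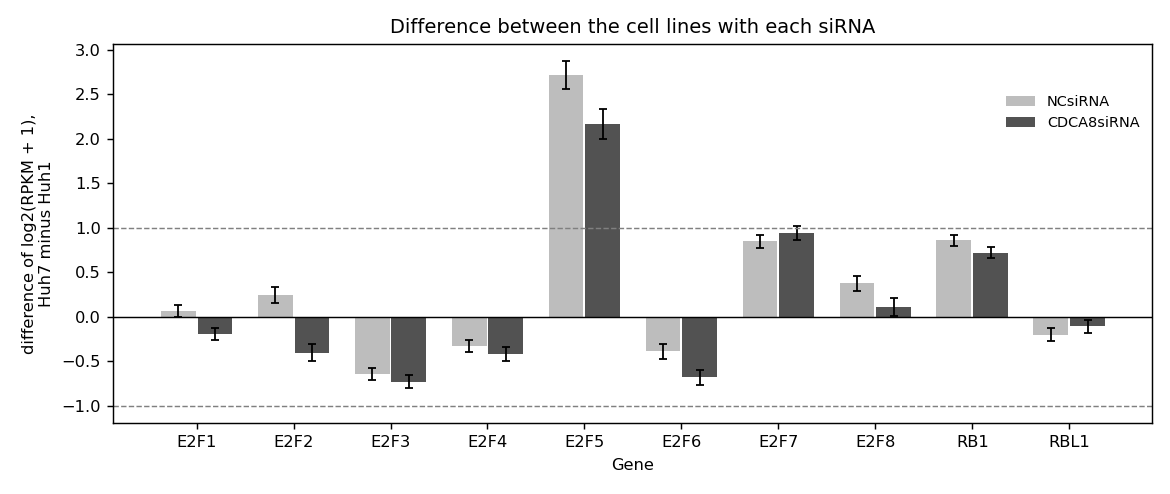
Difference of log2(RPKM + 1), Huh7 minus Huh1, for each gene with NCsiRNA and with CDCA8siRNA, with bars from 0, error bars of 1 SD from counting alone and dashed lines at 2-fold. E2F5 passes the upper dashed line with 2.72 and 2.17, E2F7 and RB1 lie above 0 below that line, and E2F3 lies lowest.

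The 10 genes stand in a pathway whose other parts were followed by lists of named genes, and for each the calls are those of limma over both lines. Of the DP proteins, which pair with E2F1 to E2F6, 2 were tested and 0 were called, also at an unadjusted p under 0.05. Over all genes tested, limma called 10.2%, and 26.0% had an unadjusted p under 0.05. TFDP1 was at 19.3 and 22.6 RPKM in Huh1 and at 45.8 and 51.6 RPKM in Huh7, and TFDP2 at 6.90 and 5.68 and at 3.55 and 2.73 RPKM. The MuvB core, with its partners MYBL1, MYBL2, FOXM1 and RBL2, had 0 of 9 genes called, where 10.2% of all genes were. At an unadjusted p under 0.05 the list had 1, where 26.0% of all genes passed. Its medians were 0.045 in Huh1 and -0.012 in Huh7. Its widest difference was that of MYBL1, at 2.92 and 3.39 RPKM in Huh1 and at 5.69 and 9.51 RPKM in Huh7 (adjusted p = 0.109).

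Without the mean-variance trend 0 of 7 partners of E2F6 in the PRC1.6 polycomb complex were called, where 710 of all 10357 genes were. With the trend 1 of the 7 was called, lower (10.2% of all genes were called). This was CBX3, a heterochromatin protein, which fell in both Huh1 (152 with NCsiRNA, 127 RPKM with CDCA8siRNA) and Huh7 (189 and 120 RPKM), with an adjusted p of 0.0244. MAX, the partner of MGA, had a limma log2 change of 0.30 and an adjusted p of 0.0937. The list's medians were -0.13 in Huh1 and -0.097 in Huh7.

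The kinases that release E2F from pocket proteins, with their inhibitors, held 13 tested genes, of which 2 rose (6.03% of all genes were called higher), 2 fell (4.21% were called lower) and 9 were not called. CDKN2B, which encodes the CDK4 and CDK6 inhibitor p15, rose with CDCA8siRNA, to 19.0 from 8.81 RPKM in Huh1 and to 13.5 from 5.02 RPKM in Huh7, with an adjusted p of 0.00120. CDK6, one of the kinases that p15 inhibits, rose to 18.9 from 11.6 and to 16.9 from 8.85 RPKM in the same lines (adjusted p = 0.00452). CCNE1, which encodes cyclin E1, fell by log2 changes of -0.54 in Huh1 and -0.77 in Huh7 (adjusted p = 0.0125), and CDKN2A, which encodes p16 and ARF, fell from 12.1 to 9.31 and from 13.3 to 8.29 RPKM (adjusted p = 0.0318). Both members that rose and members that fell thus lay upstream of the pocket proteins, and the medians were -0.075 in Huh1 and -0.018 in Huh7.

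Of 49 tested G1/S genes that E2F factors drive, 7 fell, 0 rose and 42 were not called, where 4.21% of all genes were called lower. At an unadjusted p under 0.05 there were 17, where 26.0% of all genes passed. Without the mean-variance trend 3 of the 49 genes were called, where 710 of all 10357 genes were. The genes that fell were SLBP, PCNA, CDC25A, RRM2, TYMS, ASF1B and MCM10, which serve DNA replication, nucleotide supply, histone supply and entry into S phase. SLBP, the histone mRNA binding protein, had 32.7 and 17.3 RPKM in Huh1 and 79.3 and 33.5 RPKM in Huh7 (NCsiRNA first, adjusted p = 0.00129). PCNA, the sliding clamp of DNA polymerase, had 109 and 72.8 RPKM in Huh1 and 194 and 71.9 RPKM in Huh7 (adjusted p = 0.00785). The list's median log2 change was -0.045 in Huh1, where 31 genes were lower, and -0.26 in Huh7, where 46 were lower, beside medians of 0.023 and 0.033 over all genes.

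Of 35 tested G2/M genes under MuvB, 6 fell, 1 rose and 28 were not called, where 4.21% of all genes were called lower and 6.03% higher. At an unadjusted p under 0.05 there were 19, where 26.0% of all genes passed. Without the mean-variance trend 2 of the 35 were called, where 710 of all 10357 genes were. NUSAP1, a spindle protein that fell, had 37.7 and 17.4 RPKM in Huh1 and 95.3 and 32.8 RPKM in Huh7 (adjusted p = 0.000870). The mitotic kinase PLK1 fell too, with 30.4 and 21.7 RPKM in Huh1 and 77.7 and 50.1 RPKM in Huh7 (adjusted p = 0.00938). BIRC5, for survivin, which shares the chromosomal passenger complex with borealin, rose, with 26.6 and 30.8 RPKM in Huh1 and 39.3 and 67.2 RPKM in Huh7 (adjusted p = 0.0450). The medians of this list were -0.16 in both lines.

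**Figure D4:**
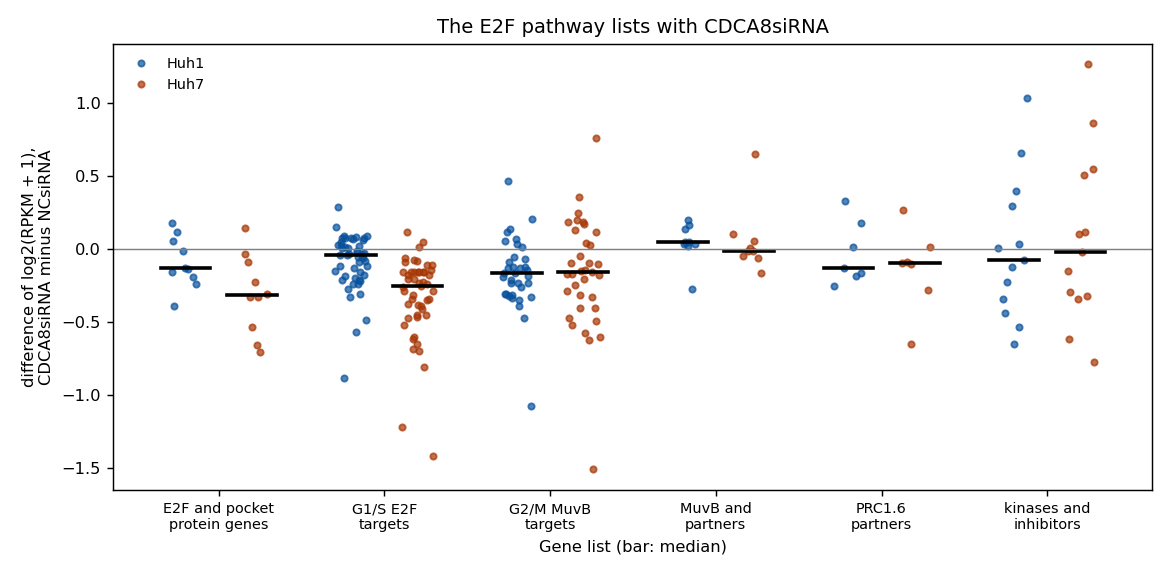
Difference of log2(RPKM + 1), CDCA8siRNA minus NCsiRNA, in Huh1 and Huh7 for the 10 E2F and pocket protein genes and the genes of 5 pathway lists, with 1 point per gene tested and a bar at the median of each list and line. The medians of the E2F and pocket protein genes lie at -0.13 and -0.32 and those of the G1/S genes at -0.045 and -0.26, with the second value of each pair for Huh7.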

How the data were processed

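The authors sequenced total RNA from both lines with Illumina TruSeq libraries, and the submitters' processing notes name CASAVA 1.8.2, TopHat2 2.0.9 and the hg19 build; the counter and gene annotation were not given in the sources used here. The deposited values are 1 RPKM value per gene and library. The unit was read from the values, which multiplied by GENCODE v29 transcript length pile up at multiples of 1 constant per library; 38.8% to 42.7% of low rows (about 1 to 10 reads) fell within 0.05 of a whole read, so no count test was run. For 7 of the 10 members a length within 20% of GENCODE's put all 4 libraries on whole reads, or on 1 shared fraction of a read, within 0.01 (4 at whole reads); for E2F2, E2F8 and RBL1 the GENCODE length was used. Depth was therefore estimated. Genes at 1 RPKM or more in at least 1 library of a pair were compared as differences of log2(RPKM + 1), and counting SDs and 95% Poisson intervals cover counting error only.

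limma 3.58.1 (R 4.3.3) was fitted to log2(RPKM + 1) of all 4 libraries with cell line as a covariate and a mean-variance trend, with a call at an adjusted p under 0.05 (prior degrees of freedom 8.29). Tables were handled with Python 3.11.15, numpy 2.4.6, pandas 2.3.3 and scipy 1.17.1, and the scripts were tested on simulated data. The labels do not say which cultures the libraries came from. Positions are those of GENCODE v29 on GRCh38 and promoters those of RefSeq on GRCh38.p14, not of hg19, and no coordinate was converted.

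The genes named were all 10 members and CDCA8, up to 4 genes of each list with the largest absolute limma change, and the 5 genes nearest to the member with the largest such change. Some genes that this rule names, and 1 list, are not reported here. RRM2, TYMS, ASF1B and MCM10 were named after their calls were seen, as were the collagen genes, CDH5, RBL2 and C8orf59. The members and lists were chosen with earlier results of these data known. Alternatives were a pseudocount of 0.1 RPKM, no filter, a filter at 5 RPKM, quantile normalization, upper quartile scaling, no cell line covariate, no trend and, added after the data were seen, a threshold of 1.5-fold.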

Additional observations from a re-analysis of the deposited data

Results flagged for a closer look

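E2F1 and E2F2 drew attention because their responses to CDCA8siRNA had opposite signs in the 2 lines, each line being a single pair of libraries, and the difference was not tested. Such signs are common: opposite or zero changes were found in 2 of the 10 members and in 3166 of all 10357 genes. E2F1 had log2 changes of 0.18 in Huh1 and -0.087 in Huh7, a difference (Huh7 minus Huh1) of -0.26, or 2.63 counting SDs, and the change in Huh7 was 1.19 counting SDs from 0. E2F2 had 0.12 and -0.53, a difference of -0.65 with a counting SD of 0.135, and its change in Huh1 was 1.29 counting SDs from 0. Over all 10 members the response was lower in Huh7 than in Huh1 for 8, beside 51.0% of all 10357 genes. CDCA8 itself kept 24.3% of its control level in Huh1 and 14.3% in Huh7. The SD of the log2 changes over all genes was 0.261 in Huh1 and 0.347 in Huh7. The part of these differences in the members' responses was not tested. No group held enough samples for a check of single outlying libraries.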

How the results depend on the processing

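No replicate could be left out and no replicate block applies, since each condition has 1 library. Pairing of the libraries by cell line is part of the limma fit, and the labels give no other pairing. Under the alternatives, 195 of 199 single-gene fold changes of the members stayed within their 95% counting interval and 4 moved beyond it. The values without a filter and with a filter at 5 RPKM could not move, because a filter only selects genes. The count that stayed therefore overstates how stable the fold changes are. Another sign than reported was found in 3 of the 199 fold changes. These were E2F1 between the lines with NCsiRNA under both scalings and E2F8 between the lines with CDCA8siRNA under quantile normalization. All 3 were differences whose interval held 0. The 2-fold count of members stayed at 0 in both knockdown comparisons; at 1.5-fold it was 2 in Huh7. Between the lines the count was 4 at 1.5-fold with NCsiRNA, 5 at 1.5-fold with CDCA8siRNA, and 2 at a pseudocount of 0.1 RPKM with CDCA8siRNA, where E2F7 joined E2F5. Limma called 0 members without a filter on low values, 0 without the cell line covariate, 2 after quantile normalization and 2 after upper quartile scaling, E2F5 joining E2F8 in both. Over all genes it called 1061 as reported, 0 without a filter and 0 without the covariate, 1488 after quantile normalization, 1393 after upper quartile scaling and 710 without the trend. The cause was not tested. Of 63 counts of calls per pathway list, 24 moved by more than 1.5 times; calls among the G1/S genes ran from 0 to 11 and among the G2/M genes from 0 to 11. E2F5 in Huh1, at 49 and 41 reads, is the value that depth limits most.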
